A study of Arabidopsis thaliana with 12 samples.

Results

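COR15A (AT2G42540), COR47 (AT1G20440) and LTI30 (AT3G50970) are cold- and dehydration-induced genes of Arabidopsis thaliana. They were found by their locus in the annotation of the Affymetrix ATH1 array, which gave 1 probe set for each gene, 3 of the 22746 probe sets of the table that are not controls. The probe set of COR15A is 263497_at, that of COR47 is 259570_at and that of LTI30 is 252102_at, and each is annotated to 1 gene. Their levels were read in whole Col:LUC seedlings (ecotype Col-0), in 4 groups of 3 arrays. The promoter that drives the LUC transgene and the number of lines behind Col:LUC are not given in the sources used here.

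All seedlings spent 10 days on B5 medium, a plant culture medium, and 3 further days on fresh plates. The first group had 4.5 µM NAA, a synthetic auxin, in the fresh plates and then 50 µM antimycin A, an inhibitor of the mitochondrial respiratory chain, for 3 hours. The second group had NAA and no antimycin A. The third group had B5 without NAA and then the same antimycin A treatment, and the fourth group had B5 and neither compound. The sources used here do not say if the untreated seedlings got the solvent, so solvent and antimycin A cannot be told apart. Nor can, in whole seedlings, fewer cells that hold a transcript and less of it per cell.

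Cold and water loss raise a shared set of protective proteins in plants. CBF transcription factors, which are made within a short time of a temperature drop, bind a short promoter element of many such genes, and the hormone abscisic acid (ABA) acts on many of them through another element. COR15A encodes a late embryogenesis abundant (LEA) protein that is imported into the chloroplast, where it protects membranes during freezing. COR47 and LTI30 encode dehydrins, unstructured, water-soluble LEA proteins that share a lysine-rich segment. COR47 is an acidic dehydrin, and LTI30, also named XERO2, is a dehydrin that binds membranes. All 3 are known as cold-induced genes.

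The 12 arrays had medians of 33.82 to 39.82, and arrays of 1 group correlated at 0.990 to 0.997 over probe sets, against 0.910 to 0.977 between groups. Their number limits the precision of every value here. AT2G21640, a gene listed to check the response to antimycin A, rose with antimycin A by 5.16 on NAA and by 5.45 on B5 on the log2 scale (limma, adjusted p = 4.66e-07 and 2.4e-07). The auxin-induced GH3.3, listed to check the response to NAA, rose with NAA by 2.41 with antimycin A and by 6.57 without it (adjusted p = 5.97e-05 and 3.66e-07). GH3.3 also rose with antimycin A, by 1.17 on NAA and by 5.33 on B5 without any NAA (adjusted p = 0.00224 and 3.39e-07). A rise in GH3.3 therefore does not by itself tell NAA from antimycin A. Of the leaf markers listed, 4 of 7 were measured, and their summed intensity was 8913 to 12103 on NAA with antimycin A, 22902 to 23744 on NAA, 19768 to 24458 on B5 with antimycin A and 35438 to 35678 on B5. Of the root markers, the root hair expansins EXPA7 and EXPA18 were measured (2 of 8), and their sum was 45.0 to 64.1, 467.5 to 648.1, 20.7 to 21.2 and 124.4 to 201.6 in the same groups. A control for 25S ribosomal RNA averaged 12030.2, 6081, 8244 and 5385 in that order. The 5′ control probe set of GAPDH, a gauge of RNA integrity and labelling, read 3.48% to 8.39%, 2.05% to 7.43%, 3.77% to 9.86% and 7.18% to 10.8% of its 3′ probe set. For the ubiquitin control the same share was higher, at 21.7% to 25.7%, 20.9% to 31.1%, 18.9% to 25.4% and 24.8% to 32.5%. The leaf markers did not change alike. With antimycin A on NAA their log2 fold changes ran from -2.62 for LHCB4.2 to -0.30 for PRK, which was not called (limma, adjusted p = 0.189). EXPA7 read 6.09 to 10.1 on NAA with antimycin A and 4.68 to 5.34 on B5 with antimycin A. It was so dim that the root sums with antimycin A rest mostly on EXPA18. The part of these shifts in the results below was not tested.

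COR15A, the chloroplast LEA gene, read 3239, 2525 and 1564 on NAA with antimycin A and 3044, 2633 and 4225 on NAA. It read 134.2, 369.3 and 261.2 on B5 with antimycin A and 907.4, 2522 and 2013 on B5. These are deposited linear intensities, given for the replicates in the order of their labelled numbers, as are all values by array below. The 3 arrays of B5 with antimycin A were low, below each of the other 9 arrays. The group means were 2443 ± 840 on NAA with antimycin A, 3301 ± 827 on NAA, 255 ± 118 on B5 with antimycin A and 1814 ± 826 on B5 (SD, n = 3 each). In ascending order the groups ran B5 with antimycin A, B5, NAA with antimycin A and NAA, with B5 apart from the lowest group and the upper neighbours overlapping in range. The spread was wide, with a coefficient of variation of 25.04% to 46.2% within a group.

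COR47, the acidic dehydrin, read 2187, 1816 and 1305 on NAA with antimycin A and 2287, 2331 and 2549 on NAA. It read 800.6, 1348 and 998.1 on B5 with antimycin A and 1717, 1799 and 1571 on B5. The groups fell in the same ascending order as for COR15A, over a narrower range. Its means were 1769 ± 443 on NAA with antimycin A, 2389 ± 140 on NAA, 1049 ± 277 on B5 with antimycin A and 1696 ± 116 on B5 (SD, n = 3 each). The arrays of NAA with antimycin A reached above and below those of B5, and the other neighbours in the order did not overlap. Within groups, the coefficient of variation was 25.03% and 26.4% with antimycin A on NAA and on B5, and 5.87% and 6.82% without it.

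LTI30, the membrane-binding dehydrin, read 15693, 10759 and 11139.5 on NAA with antimycin A and 2485, 2074 and 2237 on NAA. It read 2479, 2689 and 2407 on B5 with antimycin A and 989.8, 1267 and 927.1 on B5. Its highest group was NAA with antimycin A, whose arrays all lay above the other 9, and its lowest was B5. The means were 12530.2 ± 2745 on NAA with antimycin A, 2266 ± 207 on NAA, 2525 ± 147 on B5 with antimycin A and 1061 ± 181 on B5 (SD, n = 3 each). The groups NAA and B5 with antimycin A, in the middle of the order, overlapped in range.

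**Figure D1:**
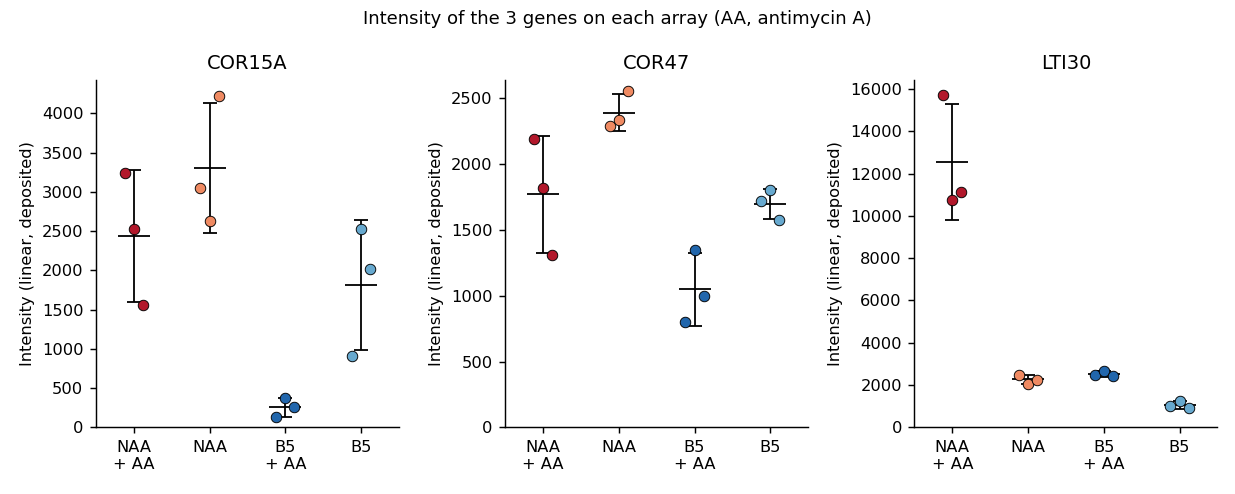
Deposited linear intensity of COR15A, COR47 and LTI30 on each of the 12 arrays (points, by replicate number from left to right), with the group mean and SD (bars, n = 3); AA is antimycin A, and each panel has its own vertical axis. COR15A and COR47 were lowest on B5 with antimycin A (means of 255 and 1049), and LTI30 was highest on NAA with antimycin A (mean of 12530.2).

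The first question was what antimycin A changed on each medium. On B5, COR15A and COR47 fell and LTI30 rose, so that the members did not move together. COR15A fell by 2.74 on the log2 scale (SE 0.47, adjusted p = 0.00156), which is 6.67-fold, and only 51 of the 22746 probe sets had a lower log2 fold change. The members were chosen with earlier results of these data known, so this rank and those below only describe them. COR47 fell by 0.71 (SE 0.21, adjusted p = 0.0265), or 1.64-fold. LTI30 rose by 1.25 (SE 0.16, adjusted p = 0.000275), or 2.38-fold. These are limma fits over all 12 arrays on log2(intensity + 16), with p-values adjusted over all probe sets by Benjamini-Hochberg and called below 0.05. For each of the 3 genes the treated arrays lay wholly above or below the untreated ones, as for 60.7% of all probe sets in this comparison. Of all probe sets, 14.3% were called higher and 18.7% lower, so that a call by itself was common. The COR47 call was lost when the fit held only the 6 arrays on B5 (adjusted p = 0.0577, and 0.00455 to 0.0866 over 22 alternatives). It was also lost in 4 of the 6 fits that leave out 1 of these arrays (replicates 1 and 3 of B5 with antimycin A, and replicates 1 and 2 of B5). Leaving out an array on NAA does not change its log2 value here.

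On NAA, antimycin A raised LTI30 by 2.44 (SE 0.16, adjusted p = 8.09e-06), or 5.43-fold, and only 178 probe sets had a higher log2 fold change. COR15A was not called there, at -0.47 on the log2 scale (SE 0.47, adjusted p = 0.555) and a 95% interval of -1.52 to 0.59, and its arrays overlapped between the groups. COR47 was not called either, at -0.46 (SE 0.21, adjusted p = 0.159, interval -0.93 to 0.01), although its 3 arrays with antimycin A lay below the 3 without. For COR47 and LTI30 the arrays of the groups did not overlap, as for 36.1% of all probe sets, and 11.6% of all probe sets were called higher and 13.2% lower.

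Whether the antimycin A effect differed between the media was tested as the effect on NAA minus the effect on B5, in the same fit. LTI30 rose more on NAA, by 1.19 on the log2 scale (SE 0.22, adjusted p = 0.0124), or 2.28-fold. For COR15A the difference was larger, at 2.27, but so was its error (SE 0.66, adjusted p = 0.0658, interval 0.78 to 3.77), and it was not called. Its 95% interval, which is not adjusted for the number of probe sets, lay above 0, and only 19 probe sets had a higher value. Without replicate 1 of B5, whose 907.4 was the lowest COR15A value on that medium without antimycin A, the difference was 2.70 and was called (adjusted p = 0.0318, and 0.00903 to 0.137 over 21 alternatives). No other fit that leaves out 1 array gave a call, and 17 of the 21 alternatives did not. For COR47 the difference was 0.26 (SE 0.30, adjusted p = 0.78), with an interval of -0.41 to 0.93, so that effects equal on both media and effects that differ by up to 0.93 lie within its error. Of all probe sets, 5.14% were called higher and 4.39% lower in this test.

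**Figure D2:**
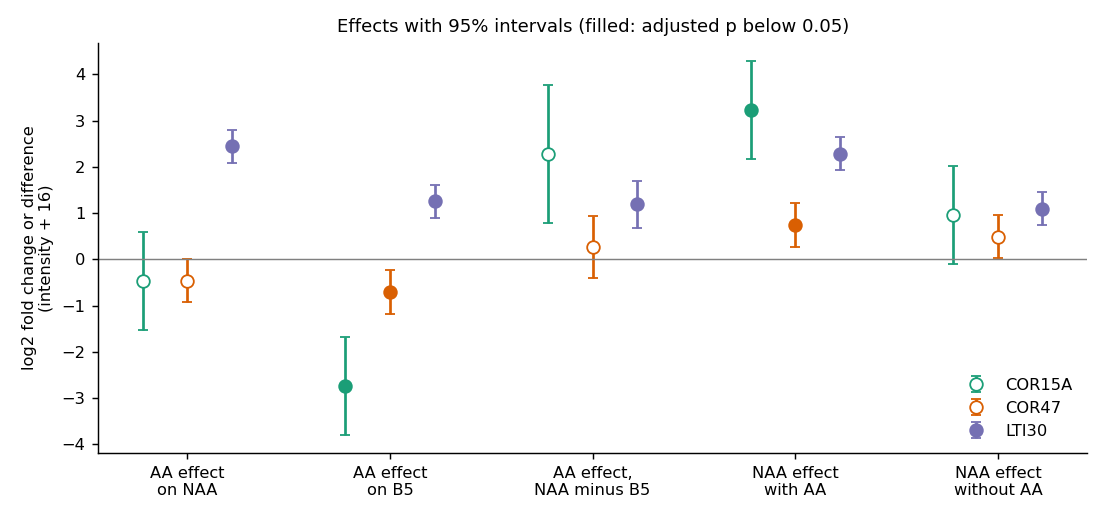
Fitted log2 fold changes and differences (vertical axis, log2 of intensity + 16) for the 3 genes in the 5 comparisons (horizontal axis), with 95% intervals that are not adjusted for the number of probe sets; filled points were called at an adjusted p below 0.05. LTI30 was called higher in all 5, and COR15A lay between -2.74 (antimycin A on B5) and 3.22 (NAA with antimycin A).

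The second question was what 3 days on NAA changed. Among seedlings with antimycin A, all 3 genes were higher on NAA. COR15A was 9.34-fold higher (log2 3.22, SE 0.47, adjusted p = 0.00122), and only 16 probe sets had a higher log2 fold change. LTI30 was 4.87-fold higher (log2 2.28, SE 0.16, adjusted p = 2.6e-05). COR47 was 1.68-fold higher (log2 0.75, SE 0.21, adjusted p = 0.0319), with its lowest array on NAA with antimycin A (1305) below its highest on B5 with antimycin A (1348). The arrays of COR15A and LTI30 did not overlap between the groups, as for 40.7% of all probe sets, and 12.2% of all probe sets were called higher and 9.74% lower. The COR47 call was lost in the fit of the 6 arrays alone (adjusted p = 0.149, and 0.00549 to 0.149 over 22 alternatives). It was also lost in 4 of the 6 fits that leave out 1 of these arrays (replicates 1 and 2 of NAA with antimycin A, and replicates 1 and 3 of B5 with antimycin A).

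Among seedlings without antimycin A, NAA raised LTI30 by 1.09 (SE 0.16, adjusted p = 0.00125), or 2.13-fold. COR15A was not called, at 0.95 (SE 0.47, adjusted p = 0.211, interval -0.10 to 2.01), and neither was COR47, at 0.49 (SE 0.21, adjusted p = 0.148, interval 0.02 to 0.96). Of each of the 3 genes, the arrays on NAA lay above those on B5 without overlap, as the arrays of the groups were apart for 39.3% of all probe sets, and 10.7% were called higher and 9.67% lower. COR47 was called in the fit of these 6 arrays alone (adjusted p = 0.0111, the lowest of 22 alternatives, which reached 0.317). Centring each array on its median moved all log2 values by a median of -0.12 with and -0.09 without antimycin A and turned the share of higher among all NAA calls to 17.8% in both, against 55.6% and 52.6% as deposited. Under it the log2 values of the members with and without antimycin A stayed above 0, at 3.11 and 0.86 for COR15A, 0.63 and 0.40 for COR47 and 2.17 and 1.00 for LTI30.

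Relative to B5, the 2 treatments together gave different outcomes for the 3 genes. LTI30 had a mean 11.8 times that of B5, and its log2 difference of 3.53 exceeded the sum of the single effects, 2.34, by the 1.19 that the test of the difference had called. COR15A stood at 1.35 times and COR47 at 1.04 times their B5 means, with ranges that overlapped those of B5. The log2 difference for COR15A was 0.49, where its single effects summed to -1.79, a gap that was not called.

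The scatter of the arrays within groups was also compared between the genes. Each array's deviation from its group mean on the log2 scale was compared between genes over the 12 arrays, with an exact permutation test over all 1296 orders of replicates within groups. COR15A and COR47 had a Pearson's r of 0.722 (two-sided exact permutation p = 0.0239) and a Spearman's rho of 0.706 (exact permutation p = 0.0424), and had the same sign on 9 of 12 arrays. After adjustment over the 3 pairs of genes neither passed (adjusted p = 0.0717 and 0.127). Without the 2 arrays farthest from the median of COR15A, r was 0.826 over the other 10 arrays. For COR15A with LTI30, r was 0.496 and rho 0.503 (exact permutation p = 0.176 and 0.148, adjusted p = 0.176 and 0.163), and r was 0.571 without the 2 farthest arrays. For COR47 with LTI30, r was 0.547 and rho 0.503 (exact permutation p = 0.137 and 0.163, adjusted p = 0.176 and 0.163), and r was 0.511 without the 2 farthest arrays. COR15A and COR47 ranked the 3 arrays of a group alike in both groups with antimycin A, and differently in both groups without it. A hybridization batch is not recorded in the labels used here, so no values within batches can be given.

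**Figure D3:**
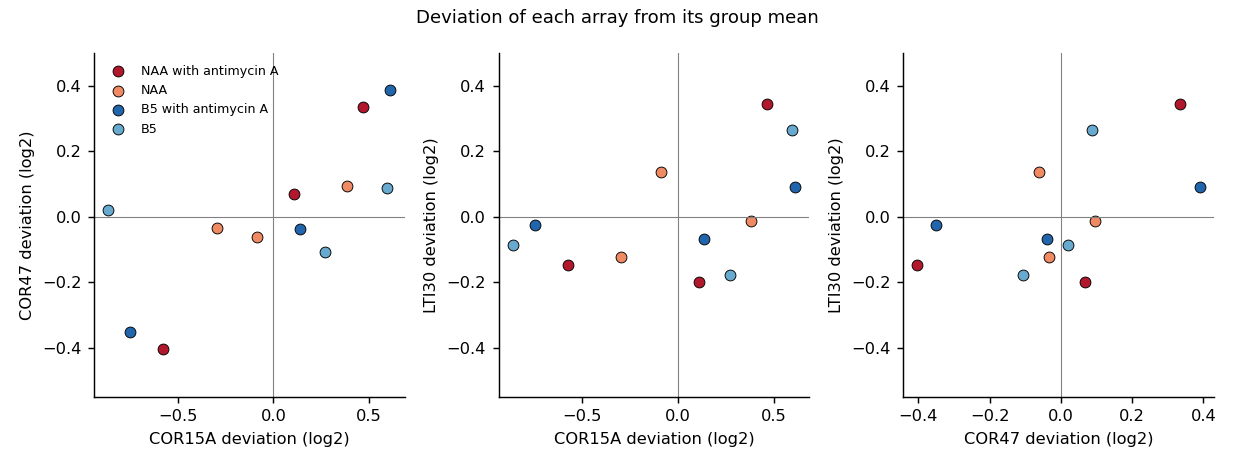
Deviation of each of the 12 arrays from its group mean (log2 of intensity + 16), one gene against another, coloured by group. COR15A and COR47 deviated with a Pearson's r of 0.722, against 0.496 for COR15A with LTI30 and 0.547 for COR47 with LTI30.

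The members were then set beside other genes of cold and dehydration. Of 100 listed genes 14 had a probe set annotated to them alone, the 3 members among them, so that the lists describe their measured genes only. In the cold regulon 8 of 31 were measured, in the list of dehydrins and other LEA proteins 9 of 20 and in the dehydration response 3 of 27, while the 35 genes of ABA signalling and metabolism are not analysed here. Among the 11 genes other than the members, antimycin A raised 4 and lowered 2 on NAA, with a median log2 fold change of 0.01, and raised 1 and lowered 2 on B5, also with a median of 0.01. Over all probe sets, 11.6% were called higher and 13.2% lower on NAA and 14.3% and 18.7% on B5, with medians of 0.01 in both comparisons. NAA raised 4 and lowered 0 of the 11 with antimycin A (median 0.11), and raised 2 and lowered 1 without it (median -0.02). Over all probe sets, 12.2% were called higher and 9.74% lower with antimycin A and 10.7% and 9.67% without it, with medians of -0.01 in both. With so few measured genes, nothing particular to the lists is read from these counts. The lists share genes, with COR47 and LTI30 in all 3 and COR15A in the first 2. With the members counted, antimycin A raised 4 and lowered 1 of the 8 cold regulon genes on NAA and raised 2 and lowered 3 on B5 (medians 0.52 and 0.00). It raised 1 and lowered 2 of the 9 dehydrin and LEA genes on NAA and raised 1 and lowered 4 on B5 (medians -0.21 and -0.17). The 3 dehydration genes held 2 rises on NAA, and 1 rise and 1 fall on B5. NAA with antimycin A raised 4 of 8, 6 of 9 and 3 of 3 genes of these lists and lowered 0, of which 1 of 5, 3 of 6 and 1 of 1 were not members. NAA without it raised 1, 2 and 2 and lowered 1 cold regulon gene, ZAT10.

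COR15B, the close relative of COR15A that is its neighbour in the RefSeq gene order, read 693.3, 522.1 and 339.1 on NAA with antimycin A, against 2063, 2223 and 2653 on NAA. On B5 it read 225.7, 233.5 and 169.5 with antimycin A and 1939, 2729 and 2595 without. The arrays with antimycin A lay below those without on both media. COR15B fell by 2.17 on NAA (SE 0.25, adjusted p = 0.000214) and fell by 3.43 on B5 (SE 0.25, adjusted p = 9.21e-06), whereas COR15A had been called on B5 and not on NAA. Its antimycin A effect on NAA minus that on B5 was 1.26 (SE 0.35, adjusted p = 0.0565), not called, as for COR15A. NAA raised COR15B by 1.20 with antimycin A (adjusted p = 0.00783), and without it the log2 fold change was -0.06 (adjusted p = 0.902). Since COR15A and COR15B are similar in sequence, cross-hybridization between their probe sets is possible and was not tested.

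Of the other dehydrins, 2 were called in some comparison. HIRD11, a small histidine-rich dehydrin, read 11546, 10119.9 and 11589 on NAA with antimycin A and 16559, 14802 and 13883 on NAA. It read 6559, 7139 and 5324 on B5 with antimycin A and 13302, 13661 and 12530.0 on B5. Its lowest group was B5 with antimycin A, as for COR47. It fell with antimycin A by 0.44 on NAA (SE 0.11, adjusted p = 0.0164) and by 1.06 on B5 (SE 0.11, adjusted p = 7.89e-05), and this difference of 0.62 was called (SE 0.16, adjusted p = 0.0385). With antimycin A it was higher on NAA (log2 0.81, adjusted p = 0.000844). AT4G38410, a locus of the dehydrin list, read 54.3 to 79.2 on NAA with antimycin A, 57.7 to 93.0 on NAA, 8.52 to 13.7 on B5 with antimycin A and 13.9 to 14.2 on B5. It was called higher on NAA with and without antimycin A (adjusted p = 0.000139 and 0.000115). Its arrays on B5 were so dim that the added 16 understates these changes, fitted at 1.60 and 1.63 on the log2 scale, and hides most change with antimycin A on B5 (-0.17, not called). With antimycin A on NAA its value was -0.21, not called. The dehydrin LEA (AT2G21490) and the locus AT4G39130 read between 4.79 and 6.11 on every array, and LEA4-5 between 5.44 and 13.5, so dim that the added 16 hides most change, and none of them was called. The genes next to COR47 and LTI30 in the RefSeq order include the dehydrins ERD10 and XERO1, which are not analysed here.

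Of the regulators, ZAT10 and SIZ1 were measured. ZAT10, a zinc finger repressor of stress-responsive genes, read 1131, 1267 and 1544 on NAA with antimycin A, against 196.7, 162.4 and 320.7 on NAA. On B5 it read 1201, 1177 and 1941 with antimycin A and 422.2, 573.9 and 454.9 without. It rose by 2.50 on NAA (SE 0.27, adjusted p = 0.000151) and by 1.51 on B5 (SE 0.27, adjusted p = 0.002), the direction of LTI30. NAA lowered it by 1.08 without antimycin A (adjusted p = 0.0199), where LTI30 rose. COR27, a cold-regulated gene also tied to the circadian clock, rose with antimycin A on NAA (log2 0.86, adjusted p = 0.013), and its value on B5 was 0.35 (adjusted p = 0.238). SIZ1, a SUMO ligase of the cold response, rose on NAA (log2 0.93, adjusted p = 0.0394) with a value of 0.80 on B5 (adjusted p = 0.056), read from the brighter of its 2 probe sets. Its other probe set read 4.84 to 5.58 and was too dim to compare. AT4G33980, listed with the cold regulon, was not called in any comparison (log2 fold changes and difference of -0.35 to 0.54, adjusted p of 0.175 to 0.513).

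ALDH7B4, an aldehyde dehydrogenase induced by dehydration and ABA, was the other measured gene of the dehydration response. It read 2753, 2916 and 3221 on NAA with antimycin A and 1819.7, 1683 and 2419 on NAA. It read 1078, 871.2 and 871.4 on B5 with antimycin A and 988.4, 1246 and 1248 on B5. As for LTI30, its highest group was NAA with antimycin A. It rose with antimycin A on NAA by 0.60 (SE 0.15, adjusted p = 0.0185) and was not called on B5, at -0.30 (SE 0.15, adjusted p = 0.183), a difference of 0.90 that was called (SE 0.21, adjusted p = 0.0326). NAA raised it by 1.64 with antimycin A (adjusted p = 0.000115) and by 0.75 without (adjusted p = 0.0076).

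**Figure D4:**
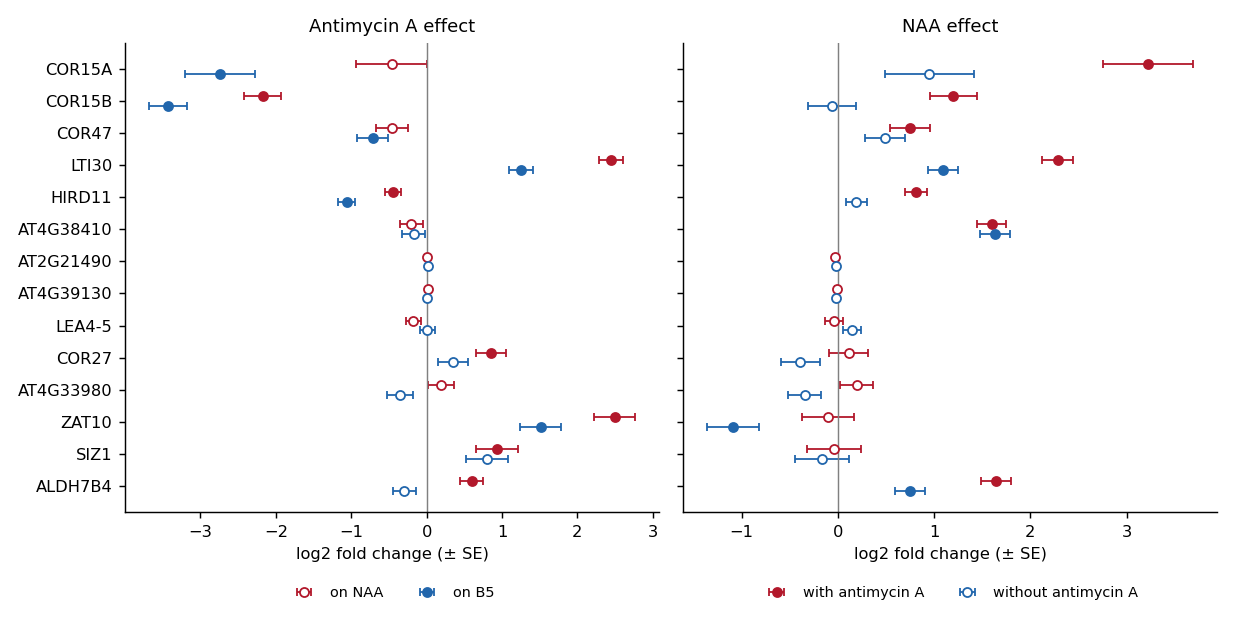
Log2 fold changes (horizontal axes, ± SE) of the 14 measured genes of the cold, dehydrin and dehydration lists with antimycin A on each medium (left) and with NAA at each level of antimycin A (right); filled points were called at an adjusted p below 0.05. COR15A, COR15B, COR47 and HIRD11 were called lower with antimycin A on B5, where LTI30 and ZAT10 were called higher.

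The genes whose pattern was most like each member's were sought among 6409 probe sets of 1 gene with a mean intensity of at least 32, by Pearson's correlation over the 12 arrays on the log2 scale. The 12 arrays fall into 4 groups, so that r here mostly describes agreement of the group means, and no p is given. Since the genes were picked by r, a shared order of groups follows from the choice and is no separate result. For COR15A the closest were AT4G30650 (r = 0.962), AT1G07750 (0.949), the beta-glucosidase gene BGLU25 (0.944), AT4G19860 (0.943) and AT1G75370 (0.943). COR47 ranked 20 among them at 0.916, HIRD11 ranked 81 at 0.869 and COR15B 557 at 0.747. AT4G30650 averaged 5313 ± 263 on NAA with antimycin A, 5922 ± 322 on NAA, 2212 ± 532 on B5 with antimycin A and 5324 ± 603 on B5 (SD, n = 3 each), low in the same group as COR15A.

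For COR47 the closest were AT1G56700 (r = 0.933), AT3G12010 (0.929), AT1G55960 (0.924), AT4G07390 (0.919) and AT1G75370 (0.919), the last of which was also among the 5 closest to COR15A. COR15A ranked 12 for COR47, whereas LTI30 ranked 3393 at 0.05. For LTI30 the closest were AT4G36430 (0.992), AT5G06730 (0.986), the homeodomain-leucine zipper gene HAT2 (0.986), AT4G15120 (0.984) and AT1G03590 (0.982). AT4G15120 and AT5G06730 met the intensity filter only through NAA with antimycin A, where LTI30 was highest. AT4G15120 averaged 90.4 there, and 17.0, 16.8 and 6.19 on NAA, B5 with antimycin A and B5. AT5G06730 averaged 98.3 there, and 25.45, 29.11 and 14.44 on NAA, B5 with antimycin A and B5. AT4G36430 averaged 3973 ± 930 on NAA with antimycin A, 829 ± 75.4 on NAA, 792 ± 85.4 on B5 with antimycin A and 367 ± 56.4 on B5 (SD, n = 3 each). HAT2, known as an early auxin-induced gene, averaged 1282 ± 59.8, 347 ± 16.02, 362 ± 36.2 and 131 ± 8.69 in the same order of groups. Both had NAA with antimycin A highest and B5 lowest, as LTI30 did, which follows from their choice by r. ALDH7B4, the closest to LTI30 of the listed genes, ranked 496 at 0.743.

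**Figure D5:**
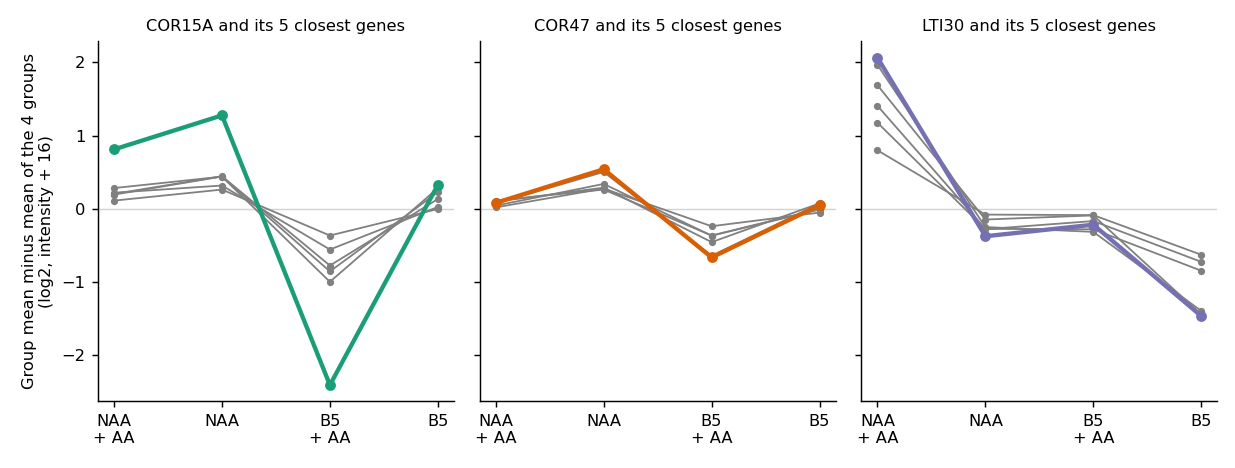
Group means on the log2 scale (intensity + 16), each minus the mean of the gene's 4 groups, for each member (thick line) and the 5 genes with the highest Pearson's correlation with it over 12 arrays (thin grey lines); lines join groups only to guide the eye, and AA is antimycin A. The genes near COR15A and COR47 were lowest on B5 with antimycin A, and those near LTI30 highest on NAA with antimycin A. They were picked by this correlation, so that this likeness follows from the choice.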

How the data were processed

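Per the labels' protocols, 400 ng of total RNA per sample, in biological triplicate, was turned into biotin-labelled RNA for Affymetrix arrays. The intensity values are linear, as the authors deposited them, in a table of 22810 probe sets and 12 arrays whose columns carry the sample identifiers. MAS5, RMA and Partek stand in the submitters' processing notes without role or version. No source used here states a normalization between arrays, although upper quartiles of 165.1 to 175.0 were close between arrays. The 64 control probe sets were left out. Genes came from the annotation table of the array (13513 probe sets with 1 gene, 503 with several, 8730 unnamed here), and symbols from RefSeq TAIR10.1, used for names and gene order only. No sequence of the members was used here.

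The linear model of limma 3.58.1 (R 4.3.3) was fitted to log2(intensity + 16) with a mean for each of 4 groups (8 residual degrees of freedom), empirical Bayes moderation, 5 contrasts, two-sided tests and Benjamini-Hochberg adjustment over 22746 probe sets. It was tested on simulated data. The added 16 understates the change of dim genes. Listed genes with several probe sets were read from the brightest. The named genes were the members, all measured genes of the 4 lists, the 5 genes closest to each member, 2 treatment checks and leaf and root markers. The members and lists were chosen with earlier results of these data known. Alternatives were other pseudocounts, scalings, variance models, a filter on dim probe sets, array weights, a replicate block, fits of 6 arrays, fits without each array and lists without shared probe sets.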

Additional observations from a re-analysis of the deposited data

Results flagged for a closer look

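The antimycin A effect differed between the media, by the test of the difference itself (limma, adjusted over all probe sets), for 3 of the 14 measured genes of the lists. The signed difference was above 0 for all 3, which is a larger rise or a smaller fall on NAA. Over all probe sets, 5.14% were called higher and 4.39% lower in this test. LTI30 had a difference of 1.19 on the log2 scale (effect on NAA minus effect on B5, adjusted p = 0.0124), with a rise on both media. ALDH7B4 had a difference of 0.90 (adjusted p = 0.0326), with a called rise on NAA and no call on B5. HIRD11 had a difference of 0.62 (adjusted p = 0.0385), with a called fall on both media that was smaller on NAA (-0.44, against -1.06 on B5). Groups of 3 arrays are too small for a test of single outlying arrays.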

How the results depend on the processing

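Of 15 results for the members (3 genes in 5 comparisons), 11 kept their direction and their side of the threshold under every alternative run. Of 327 alternative values, 312 did so, but many of them could not change direction. Another variance model, the filter on dim probe sets, the replicate block and the fits of 6 arrays leave a log2 value as it was. So does leaving out an array of a group that is not compared. In these alternatives only the adjusted p can move. All 5 results of LTI30 were among the 11, with log2 values from 1.00 (NAA without antimycin A) to 2.62 (antimycin A on NAA). The COR15A difference of antimycin A effects was called with the filter on dim probe sets (2.27, adjusted p = 0.00903, with fewer probe sets tested), an intensity trend (2.27, adjusted p = 0.0358) and array weights (2.63, adjusted p = 0.0367), and ranged from 1.90 to 2.70 when single arrays were left out (adjusted p of 0.00903 to 0.137 over all 21 alternatives). It was also called without replicate 1 of B5, and was not called in 17 of the 21. With the 6 arrays compared alone, COR47 lost its calls for antimycin A on B5 (-0.71) and NAA with antimycin A (0.75). It gained one for NAA without antimycin A (0.49). These fits take the spread from the compared arrays alone, whereas the main fit shares 1 estimate over all groups. The log2 SD of COR47 was 0.37 in both groups with antimycin A, against 0.083 on NAA and 0.099 on B5 without it. Leaving out single arrays gave COR47 -0.91 to -0.54 for antimycin A on B5 and 0.57 to 0.95 for NAA with antimycin A. Median centring raised the calls over all probe sets to 13365 for NAA with and 12002 for NAA without antimycin A, against 4994 and 4637. The replicate number as a block changed no call of a member (COR47 on B5 -0.71, adjusted p = 0.0388) and gave 7537 calls for antimycin A on B5, against 7504. Deviations of same-numbered arrays correlated at -0.12 to 0.38, above 0 in 16 and above 0.1 in 5 of 18 pairs. An array correlated best with its own number in 21 of 36 checks, against 12 if the 3 numbers were alike. Both are a hint of pairing from the data, which the main fit did not use. Leaving out shared probe sets changed no list count. The cause of these shifts was otherwise not tested. Signal over background limits LEA4-5, LEA, AT4G39130 and, on B5, AT4G38410. It also limits EXPA7 with antimycin A, and AT4G15120 and AT5G06730 outside NAA with antimycin A.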
